A study of Mus musculus with 24 samples.

Results

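The response of eIF4E3 knockout (KO) cells to Torin1 was followed by ribosome profiling (ribo-seq), in which the stretches of mRNA that ribosomes shield from RNase I are sequenced and counted as footprints. The 6 libraries described, of 24 in the series, were those labelled ribo-seq KO, 3 with DMSO as the vehicle and 3 with Torin1. All came from N2a (Neuro-2a), a mouse neuroblastoma cell line. The KO cells had been transfected with CRISPR-Cas9 vectors carrying guides against Eif4e3 and selected with puromycin, so they were a selected population and no clone was stated. The control (ctrl) cells, also N2a, had received the empty vector. Torin1 was given at 250 nM for 2 h and DMSO in the same volume for the same time, each replicate being a different passage. RNA-seq of the same KO conditions (3 libraries each) and ribo-seq of ctrl cells (2 DMSO and 3 Torin1 libraries, ctrl DMSO replicate 2 not being analysed here) were used beside them. The comparison asks which mRNAs gain or lose ribosomes when mTOR is inhibited in cells that lack eIF4E3.

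The mTOR kinase promotes cap-dependent initiation by phosphorylating the 4E-BPs, which otherwise hold eIF4E away from the scaffold eIF4G. The mRNAs most dependent on it begin with a pyrimidine tract at the cap, the 5′ terminal oligopyrimidine (TOP) motif. They encode ribosomal proteins and elongation factors, and LARP1 binds their 5′ ends when mTOR is inactive. Torin1 blocks the active site of mTOR in both of its complexes, and therefore also acts on Akt and the FoxO factors downstream of it. eIF4E3 is a cap-binding relative of eIF4E.

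The start-site windows that follow were taken from the RefSeq promoter table (GRCm38.p6), in each case the entry nearest to the 5′ end of the transcript that was counted. They are shown because the TOP tract gives the TOP mRNAs their name, and the lists of these mRNAs fell furthest in the median. Each line gives 15 bases before and 15 bases from the annotated start, 5′ to 3′, and capitals mark the longest run of at least 6 pyrimidines that opens with C.
Eef1a1 (chr9:78481710-78481739, minus strand): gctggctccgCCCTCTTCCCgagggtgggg
Rpl27a (chr7:109519180-109519209, plus strand): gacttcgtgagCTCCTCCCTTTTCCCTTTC
Rack1 (chr11:48800345-48800374, plus strand): cggaggccgCTCTTTCTTTTTCTCCacagg
Eif3f (chr7:108934400-108934429, plus strand): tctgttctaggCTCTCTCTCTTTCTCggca
Rps2 (chr17:24720048-24720077, plus strand): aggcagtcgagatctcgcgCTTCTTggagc
Eef2 (chr10:81176616-81176645, plus strand): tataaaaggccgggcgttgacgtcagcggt
Nomo1 (chr7:46033681-46033710, plus strand): gggcgcagggccgcggcgcgcctgcgcaga
Txnip (chr3:96557942-96557971, plus strand): ttccggcagccgcttgacaCTCTCCTCCTC
The Rpl27a entry starts 48 nt from the 5′ end of the counted transcript, the others at most 3 nt from it. The run crossed the annotated start in Eef1a1 (10 bases), Eif3f (15 bases), Rack1 (16 bases) and Rpl27a (19 bases), whereas the Eef2 window held no such run. In Rpl27a it reached the edge of the window and may be longer. Nomo1, which encodes an ER membrane protein and also lost footprints, had none, and Txnip, whose footprints rose, had one. A run of this kind (a C followed by at least 5 letters that are each C or T) was present in 41 of the 77 TOP-list members with a window (53.2%) and in 1968 of all 8618 tested transcripts with one (22.8%). On the opposite strand the shares were 10.4% and 25.0%. Among transcripts called lower outside the TOP lists the run was found in 24.7%, and among those called higher in 19.9%. A match describes the letters in the window and no more.

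The 6 KO libraries held 1615954 to 5288846 footprints, and every DMSO library was deeper than every Torin1 library. Pearson's r of log2 CPM (counts per 1000000) across transcripts was 0.972 to 0.983 within a condition and 0.922 to 0.938 between conditions, and transcripts are not independent replicates. The KO label was checked on Eif4e3 itself. KO DMSO libraries held 7, 18 and 8 footprints on it and KO Torin1 libraries 15, 7 and 4. These are levels of 2.26 to 6.54 CPM, scaled by TMM as are all levels given here, against 11.7 to 22.2 CPM in the 5 ctrl libraries, so no KO library overlapped a ctrl library, although the 2 genotypes were scaled separately. Of 20 markers of sympathoadrenal neuroblastoma 17 were listed in the KO table, and glial and blood markers were not listed. Pdgfra was the only fibroblast marker listed.

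With Torin1, footprints of KO cells moved on a large part of the transcriptome. Of 10822 transcripts tested, 2391 fell (22.1%) and 1999 rose (18.5%) by edgeR's quasi-likelihood test at an adjusted p under 0.05. The falls were the larger changes, with 905 transcripts down and 294 up by more than 1 on the log2 scale. Libraries of the 2 conditions did not overlap for 2787 transcripts with Torin1 below (25.8%) and for 2535 with Torin1 above (23.4%). Ribo-seq has no internal standard here, so every change is relative to the other transcripts. The split depends on that choice, since with scaling to the library total alone 3766 transcripts rose and 1532 fell, and the median log2 change of all transcripts moved from 0.02 to 0.26. The gene lists that follow were chosen with earlier results of these data known. Their counts beside the shares of all transcripts are therefore descriptions and not tests of the lists.

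TOP mRNAs lost most of their footprints. Of 104 members tested in 4 lists (small and large ribosomal subunit, elongation factors, other TOP mRNAs), 103 fell, with a median log2 change of -2.02 beside 0.02 for all transcripts. Together they took 11.7%, 11.5% and 11.3% of all footprints in the DMSO libraries and 3.68%, 3.70% and 3.46% in the Torin1 libraries. In the RNA-seq of the same conditions their share was 10.4% to 11.6% with DMSO and 10.5% to 11.1% with Torin1, so the mRNA groups overlapped while the footprint groups were far apart.

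**Figure D1:**
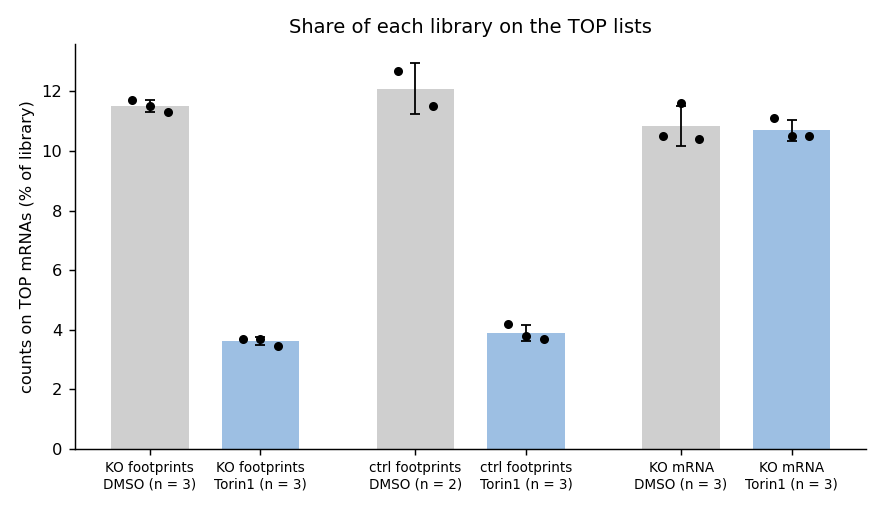
Share of each library's counts that fell on the 104 TOP mRNAs (% of library, y axis) in KO footprints, ctrl footprints and KO mRNA. Bars are means, points single libraries and error bars SD. The share dropped from over 11% to below 4% in KO footprints and was between 10.4% and 11.6% in every KO mRNA library.

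The elongation factor mRNAs fell furthest. Eef2, which encodes the translocation factor of the elongating ribosome, had 2510, 2700 and 3080 CPM with DMSO and 204, 231 and 210 CPM with Torin1 (log2 change -3.68 ± 0.12 (SE), adjusted p = 2.08e-21 by edgeR). Eef1a1, which encodes the factor that delivers aminoacyl-tRNA, was the most abundant of them and went from 9460, 11300 and 12900 CPM to 994, 918 and 837 CPM (-3.61 ± 0.12). In both the lowest DMSO library was several times above the highest Torin1 library. The remaining 3 tested members, Eef1b2, Eef1g and Eef1d, named here after their values were seen, fell by 2.33, 2.22 and 1.04 on the log2 scale.

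Among small subunit proteins 32 of 33 mRNAs fell, with a median log2 change of -1.95. Rps2 went from 1600, 1770 and 2280 CPM to 221, 205 and 200 CPM (-3.18 ± 0.13). The member that did not pass was Rps27l, a paralog of Rps27 (log2 change -0.29). All 49 large subunit mRNAs fell, with a median of -2.07. The range within this group was wide, from Rpl27a (1080, 955 and 980 CPM to 81.1, 91.3 and 102 CPM, -3.46 ± 0.12) to Rpl21 (1290 to 830 CPM in the mean, -0.63). Rpl32 lay between them at -2.80 ± 0.11. Rpl21 and Rps27l were chosen after their values were seen, and ribosomal proteins have many processed copies in the genome, so that the counts of single members are less certain than those of the group.

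The 17 other TOP mRNAs all fell, with a median of -1.31. Pabpc1, which encodes the main cytoplasmic poly(A)-binding protein, went from 334, 403 and 421 CPM to 38.3, 56.5 and 51.3 CPM (-2.99 ± 0.14). Eif3f fell from 244, 242 and 279 CPM to 38.3, 35.3 and 33.3 CPM (-2.83 ± 0.14), and Rack1, a ribosome-bound scaffold, from 1870, 1840 and 2190 CPM to 470, 479 and 486 CPM (-2.04 ± 0.11). These 3 mRNAs themselves changed by 0.12, -0.03 and -0.06 (log2), none of them called. Eif4b, an eIF4A cofactor named after its values were seen, lost footprints (-0.99) while its mRNA rose by 0.26.

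**Figure D2:**
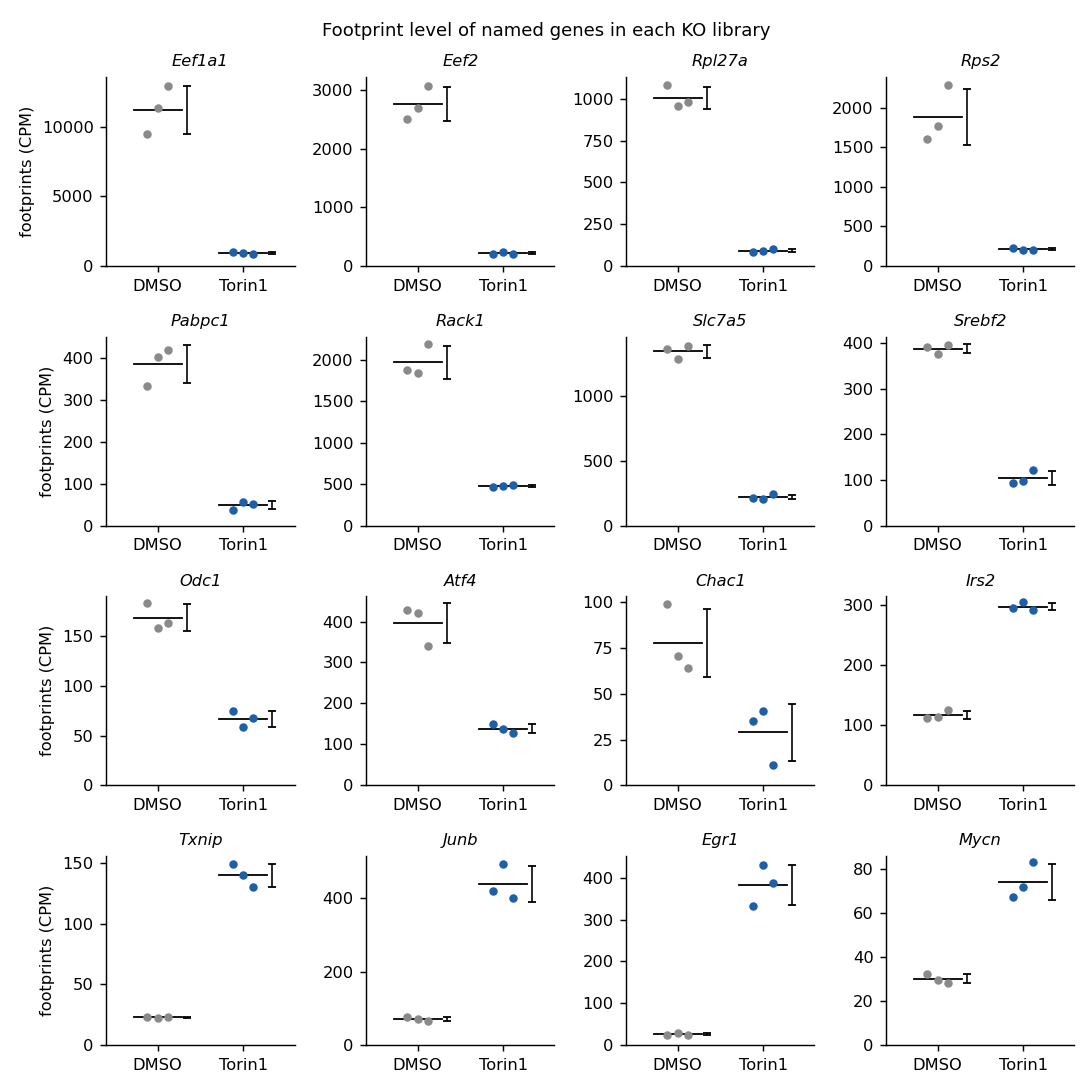
Footprint level (CPM after TMM scaling, y axis from 0) of 16 named genes in the 3 DMSO and 3 Torin1 KO libraries. Points are libraries, horizontal lines means and error bars SD. The groups do not overlap in any panel and the Torin1 libraries of Chac1 ran from 11.3 to 40.5 CPM.

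Members of the cap-binding complex and their regulators went both ways. Of 15 tested 5 fell and 4 rose, where 22.1% of all transcripts fell and 18.5% rose. The median log2 change was -0.04, and without TMM scaling it became 0.21, with 3 lower and 6 higher. Eif4ebp1, the mTOR-regulated repressor of eIF4E, fell from 277, 212 and 197 CPM to 86.7, 107 and 93.6 CPM (-1.25 ± 0.13, edgeR adjusted p = 2.98e-09), and its mRNA fell by 0.48. Eif4ebp2 was at 9.36 CPM and 5.51 CPM in the mean and missed the threshold (-0.79 ± 0.35, edgeR adjusted p = 0.0661, or 0.0497 with the replicate block and 0.0395 without KO Torin1 replicate 1). Footprints on Eif4e were 332, 272 and 268 CPM against 358, 291 and 281 CPM, and on Eif4e2 102, 88.7 and 90.8 CPM against 110, 97.4 and 86.8 CPM, with overlapping groups in both (log2 0.10 ± 0.12 and 0.07 ± 0.13, adjusted p = 0.540 and 0.689 by edgeR). Without TMM scaling both passed the threshold as higher (0.35 and 0.32). Eif4g1, the scaffold, rose by 0.35 ± 0.12 (edgeR adjusted p = 0.0159), a call lost without KO DMSO replicate 1, KO Torin1 replicate 2 or KO Torin1 replicate 3 (adjusted p = 0.0943, 0.108 and 0.0971). Eif4a1, the helicase, fell by 0.27 ± 0.10 and was not called without TMM scaling (-0.02) or without KO DMSO replicates 2 and 3 or KO Torin1 replicates 2 and 3 in turn (adjusted p = 0.0547, 0.0933, 0.142 and 0.128 by edgeR). Mknk2 and Eif4a2, named after their values were seen, fell by 2.57 and 0.98, the Eif4a2 mRNA rising by 0.61. Pdcd4, which encodes an inhibitor of eIF4A, rose from 39.5, 37.1 and 30.4 CPM to 110, 108 and 95.3 CPM (1.55 ± 0.14). Its mRNA rose as much (1.61 ± 0.11).

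Initiation factors outside these lists split as well, as 8 of 29 fell and 4 rose, shares near those of all transcripts (22.1% and 18.5%). The median was -0.09, and without TMM scaling it became 0.15, with 4 lower and 9 higher. The falls were those of 5 eIF3 subunits, 2 eIF2B subunits and Eif2a (-1.06, named after its value was seen), with the smallest adjusted p for Eif3i (352, 347 and 413 CPM to 81.9, 100 and 107 CPM, -1.95 ± 0.13) and Eif3m (-0.89 ± 0.11). Those that rose were Eif1ax, Eif5, Eif5b and Eif1a, named after their values were seen, by 0.27 to 0.83. Of 13 LARP and poly(A)-binding genes 5 fell and 2 rose (median -0.02), or 4 and 6 without TMM scaling (median 0.23). Larp1, the TOP mRNA repressor, fell a little, from 278, 262 and 250 CPM to 174, 197 and 217 CPM (-0.43 ± 0.11), but not without TMM scaling (-0.18, edgeR adjusted p = 0.198). Ybx1, an mRNA-packaging protein, fell by 1.47 ± 0.12.

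**Figure D3:**
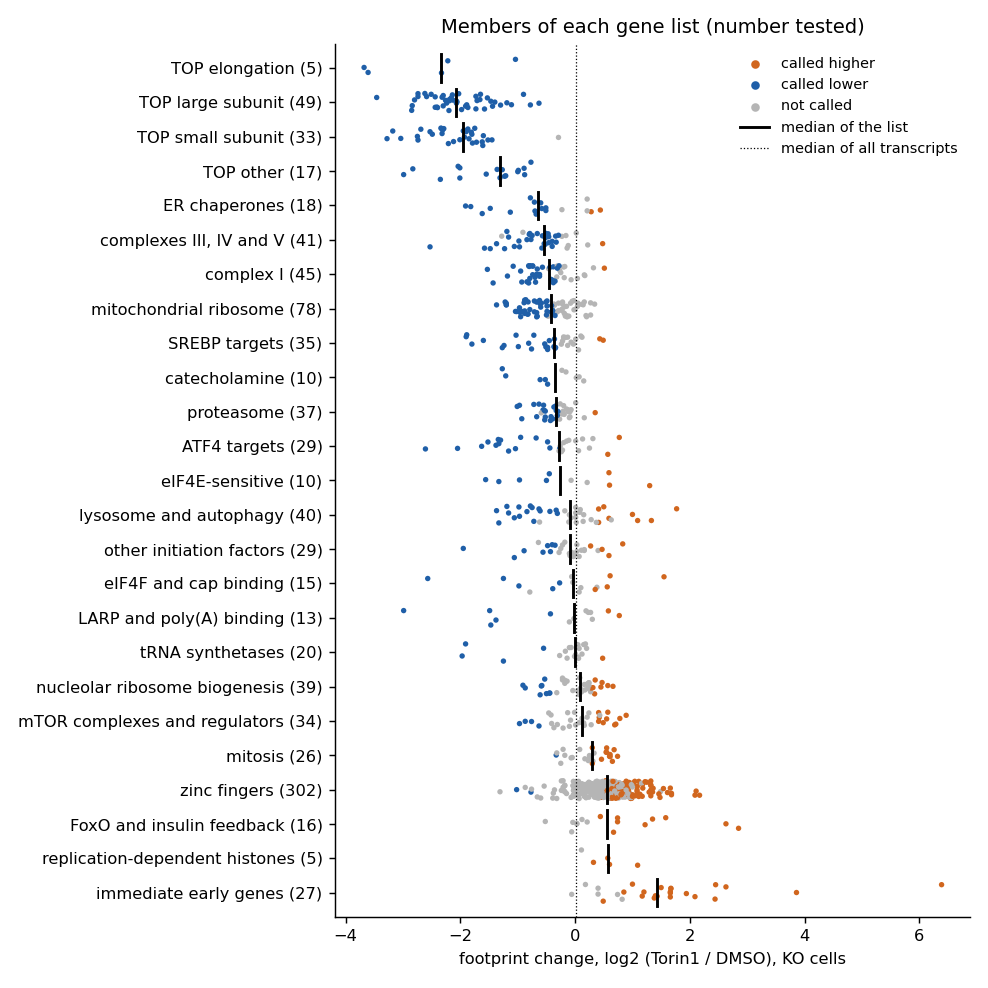
Footprint change (log2, Torin1 over DMSO) of each tested member of 25 gene lists in KO cells, with orange and blue for members called higher and lower and grey for the rest. Black bars are list medians, the dotted line the median of all transcripts (0.02). The 4 TOP lists stand at the low end and immediate early genes (median 1.43) at the high end.

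Genes of the growth factor response rose together. Of 27 immediate early genes tested 21 were higher, with a median log2 change of 1.43 beside 0.02 for all transcripts, 18.5% of which were called higher. Egr1, a zinc finger transcription factor induced within minutes of stimulation, went from 24.7, 28.9 and 24.2 CPM to 333, 430 and 387 CPM (3.86 ± 0.14, adjusted p = 1.84e-20 by edgeR). Junb, an AP-1 subunit, went from 76.1, 71.2 and 65.6 CPM to 420, 493 and 401 CPM (2.63 ± 0.12), and Fos, its partner, from 2.39, 3.75 and 4.84 CPM to 21.4, 18.8 and 21.4 CPM (2.45 ± 0.29). Every Torin1 library was above every DMSO library for all of them. Egr2 was at 2 footprints in one DMSO library and at none in the other 2, and at 10.0, 28.2 and 22.6 CPM with Torin1, which is at least 21.3-fold higher, with 3 counts per library as the floor of the DMSO level. The mRNAs of the list rose too, 24 of 31 being called higher where 6.23% of all were.

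Of 16 targets of FoxO and feedback genes of insulin signalling 9 rose (median 0.56), where 18.5% of all transcripts did. Of 17 mRNAs of this list 7 rose and 2 fell, where 6.23% and 3.74% of all mRNAs did. Txnip, a thioredoxin inhibitor that limits glucose uptake, rose from 23.1, 22.1 and 22.8 CPM to 149, 140 and 130 CPM (2.63 ± 0.14), and Irs2, the insulin receptor substrate, from 112, 114 and 125 CPM to 296, 305 and 293 CPM (1.35 ± 0.11). Fbxo32, a FoxO-induced ubiquitin ligase, rose from at most 1.99 CPM to between 5.67 and 7.89 CPM (2.85 ± 0.54). Insr itself was at 83.7 to 96.6 CPM and 94.1 to 111 CPM in the groups and did not pass (0.21 ± 0.13, edgeR adjusted p = 0.192), although it did without TMM scaling (0.46). Of 34 mTOR components and upstream regulators 10 rose and 4 fell (median 0.12), beside 18.5% and 22.1% of all transcripts, and 15 rose without TMM scaling (median 0.37). Lamtor3, of the lysosomal Ragulator, rose from 53.8, 52.5 and 53.2 CPM to 116, 93.2 and 84.6 CPM (0.89 ± 0.14) and Pik3r2, a regulatory subunit of PI3K, fell (-0.97 ± 0.19). Mtor missed the threshold (-0.37 ± 0.16, edgeR adjusted p = 0.0639), and passed it as lower when the libraries were thinned to the smallest (-0.53), without KO DMSO replicate 1 (-0.48) and without KO Torin1 replicate 2 (-0.49).

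ATF4, a transcription factor that mTORC1 activates through translation of its mRNA, drives genes for amino acid synthesis and uptake. In this list 15 of 29 members lost footprints and 2 gained them (median -0.28), where 22.1% of all transcripts fell and 18.5% rose. Without TMM scaling 12 fell and 5 rose, and the median was -0.03. The mRNAs of this list fell as well, 18 of 29 being called lower (median -0.33), where 3.74% of all mRNAs were. Atf4 fell from 429, 420 and 340 CPM to 149, 138 and 127 CPM (-1.52 ± 0.12), and its mRNA by 1.02 ± 0.07. Slc7a5, the light chain of the leucine transporter, fell from 1360, 1290 and 1390 CPM to 215, 207 and 240 CPM (-2.61 ± 0.11, edgeR adjusted p = 9.22e-19) with a much smaller fall of its mRNA (-0.60 ± 0.07). At the other extreme stood Chac1, a glutathione-degrading enzyme, and Sesn2, a leucine sensor that restrains mTORC1. Their mRNAs fell by 3.84 ± 0.11 and 3.62 ± 0.10, while their footprints changed by -1.38 ± 0.22 and -2.05 ± 0.27, both called. Footprints per mRNA were thus higher for both with Torin1 (2.46 and 1.55 on the log2 scale, edgeR adjusted p = 7.44e-07 and 3.95e-04). Asns, asparagine synthetase, had 1320, 1480 and 1760 CPM with DMSO and 1200, 1240 and 1330 CPM with Torin1, groups that overlap. It passed narrowly (-0.27 ± 0.11, edgeR adjusted p = 0.0437) and was not called in 11 of 13 alternatives, among them those without KO DMSO replicates 2 or 3 or any 1 KO Torin1 library (adjusted p = 0.0539 to 0.254). Ppp1r15a, a phosphatase subunit that reverses eIF2α phosphorylation, and Nupr1 were the members that gained footprints (0.77 and 0.57), and they were named after their values were seen.

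The aminoacyl-tRNA synthetases, several of which are ATF4 targets, fell in 4 of 20 cases and rose in 1, where 22.1% and 18.5% of all transcripts did, and 10 of 20 were called higher without TMM scaling. The strong falls were those of Qars (108, 99.7 and 105 CPM to 28.8, 24.9 and 25.9 CPM, -1.97 ± 0.15) and Vars (-1.91 ± 0.13). Of 10 mRNAs described as sensitive to eIF4E, 5 fell and 3 rose, or 3 and 3 without TMM scaling. Odc1, the first enzyme of polyamine synthesis, went from 184, 158 and 164 CPM to 75, 58.8 and 67.7 CPM (-1.33 ± 0.13), and Ccnd1, cyclin D1, from 241, 222 and 228 CPM to 103, 119 and 132 CPM (-0.97 ± 0.12). Mycn, the driver of many neuroblastomas, rose instead, from 32.3, 29.4 and 28.3 CPM to 67.1, 71.5 and 82.9 CPM (1.30 ± 0.15), by as much as its mRNA (1.30 ± 0.12).

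Many SREBP targets and ER chaperones lost footprints. Of their mRNAs 9 of 35 and 7 of 18 were called lower, where 3.74% of all mRNAs were. Of 35 SREBP targets 20 fell and 2 rose (median -0.36), where 22.1% of all transcripts fell and 18.5% rose, and without TMM scaling 11 fell and 6 rose (median -0.12). Srebf2, the transcription factor of cholesterol synthesis, went from 392, 376 and 395 CPM to 93.7, 96.9 and 122 CPM (-1.90 ± 0.12). Of 18 ER chaperones 13 fell (median -0.64), among them P4hb, a disulfide isomerase (1160, 1210 and 1180 CPM to 317, 341 and 347 CPM, -1.82 ± 0.11), and Hyou1 (-1.62 ± 0.11). Hspa5, the BiP chaperone, went the other way (0.28 ± 0.10, edgeR adjusted p = 0.0240), a call that was lost without KO DMSO replicate 1, KO Torin1 replicate 2 or KO Torin1 replicate 3 (adjusted p = 0.0790, 0.0699 and 0.101). The Hspa5 mRNA was called lower (log2 change -0.31).

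Lysosomal and autophagy genes went both ways. Of 40 tested 16 fell and 8 rose, where 22.1% of all transcripts fell and 18.5% rose. The median was -0.09, and without TMM scaling it became 0.16, with 12 lower and 13 higher. The falls with the smallest adjusted p were those of the lysosomal protease Ctsd (1040, 1010 and 1050 CPM to 484, 489 and 515 CPM, -1.06 ± 0.10) and the membrane protein Lamp1 (-1.16 ± 0.11). Those that rose were, named after their values were seen, the autophagy genes Gabarapl1, Gabarapl2, Becn1, Ulk2 and Sqstm1, the folliculin complex genes Flcn and Fnip1, and the lysosomal enzyme Gla, by 0.41 to 1.77. In Ulk2 and Becn1 the groups overlapped.

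Nuclear-encoded mitochondrial genes fell by smaller amounts. Lower were 43 of 78 mitochondrial ribosomal proteins (median -0.42), 31 of 45 complex I subunits (median -0.46) and 32 of 41 subunits of complexes III, IV and V (median -0.54), where 22.1% of all transcripts were lower. Atp5g2, a ring subunit of ATP synthase, fell furthest among those named (455, 383 and 471 CPM to 91.5, 58.8 and 76.1 CPM, -2.53 ± 0.14). Ndufb5 and Ndufa6 of complex I fell by 1.53 ± 0.12 and 1.43 ± 0.13, Mrpl30 and Mrpl52 by 1.22 ± 0.14 and 1.37 ± 0.17, and Atp5d by 1.48 ± 0.12, and none of these mRNAs was called. The mRNA changes of the mitochondrial lists were small but mostly below 0 (71 of 78, 43 of 45 and 39 of 41), beside 5614 of all 11004 mRNAs. Their medians were -0.16, -0.2 and -0.15. Called lower were 3, 4 and 1 of them, where 3.74% of all mRNAs were. Of 37 proteasome subunits 20 fell (median -0.33), among them Psmb6 (-0.93 ± 0.11) and Psmd8 (-1.01 ± 0.13). Without TMM scaling the medians of these 4 lists were -0.18, -0.22, -0.29 and -0.08, and 30, 21, 21 and 10 members fell.

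In several groups more members rose than fell. Of 26 mitotic genes 12 rose and 1, Bub3, fell (median 0.30), where 18.5% of all transcripts rose, and without TMM scaling 19 rose (median 0.55). Among them were Ndc80 of the kinetochore at 88.9, 113 and 120 CPM against 180, 168 and 192 CPM (0.74 ± 0.12) and Cenpf at 0.65 ± 0.12. Among 302 numbered Zfp zinc finger genes 104 rose and 2 fell (median 0.56), or 185 and 1 without TMM scaling (median 0.81), with Zfp655 at 1.32 ± 0.14 and Zfp608 at 1.54 ± 0.16. Of 303 mRNAs of this list 40 rose and 3 fell, where 6.23% and 3.74% of all mRNAs did. Of 5 histone mRNAs tested 4 rose, Hist1h4n from 783, 712 and 690 CPM to 1620, 1620 and 1410 CPM (1.09 ± 0.11) and Hist1h2ap by 0.60 ± 0.11, but histone copies are nearly identical and were not tested in the RNA-seq, so these values are uncertain. Nucleolar factors went both ways, 9 of 39 lower and 8 higher (median 0.08), shares near those of all transcripts, and 4 lower and 21 higher without TMM scaling (median 0.33), with Noc2l at -0.87 ± 0.12 and Utp20 at 0.66 ± 0.13.

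Of 10 catecholamine genes 5 fell (median -0.35), where 22.1% of all transcripts did, and 2 fell without TMM scaling (median -0.10). Dbh, which makes noradrenaline from dopamine, went from 47.8, 46.0 and 49.4 CPM to 14.8, 27.8 and 19.2 CPM (-1.21 ± 0.19), and Spr, needed for the cofactor of tyrosine hydroxylase, fell by 1.27 ± 0.21. Th, tyrosine hydroxylase itself, had 1.87 to 3.80 CPM with DMSO and 2.26 to 3.49 CPM with Torin1, and a change was not detectable at this depth (0.02 ± 0.48, edgeR adjusted p = 0.976). The neuroblastoma markers went both ways, 5 of 17 lower and 4 higher (median 0.05), where 22.1% of all transcripts fell and 18.5% rose. Tubb3, the neuronal tubulin, was among those that fell (-1.06 ± 0.10).

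The largest single changes lay partly outside these lists. Hspg2, the basement membrane proteoglycan perlecan, fell from 207, 206 and 249 CPM to 6.97, 10.8 and 14.1 CPM (-4.40 ± 0.18), and Mogs, the glucosidase that begins N-glycan trimming, from 128, 122 and 134 CPM to 6.97, 11.8 and 9.59 CPM (-3.76 ± 0.18). Crb2, an apical polarity protein, fell from 22.7, 24.6 and 27.6 CPM to 3.49 CPM or less (-3.92 ± 0.39). The Hspg2 and Mogs mRNAs also fell, by 0.80 and 1.25, and that of Crb2 was not called (-0.13). Pabpc6 and Pabpc2, copies of Pabpc1 without introns, were at 0 in all Torin1 libraries and at least 2.72-fold and 2.08-fold lower, but they share sequence with Pabpc1. Ldhal6b and Cdh24 had at most 1 footprint in a Torin1 library and were at least 2.42-fold and 2.35-fold lower. Among the largest rises besides those given above were Ccl2, a chemokine (3.99, 6.45 and 4.14 CPM to 34.0, 26.8 and 33.3 CPM, 2.60 ± 0.25), and Crebrf (2.49 ± 0.30).

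Set beside the RNA-seq of the same conditions, most of the footprint changes had no called counterpart in mRNA. Of 11004 mRNAs tested, 686 rose (6.23%) and 411 fell (3.74%) by edgeR, or 1080 and 717 with the replicate number as a block. These counts varied with the RNA-seq library left out. They were 394 and 156 without DMSO replicate 1, and 400 and 179 without Torin1 replicate 1. Without Torin1 replicate 2 they were 302 and 136, and without Torin1 replicate 3 341 and 161. More were called without DMSO replicate 2 (857 and 608) and without DMSO replicate 3 (788 and 490). Of the transcripts with falling footprints and an mRNA test, 90.0% were not called in mRNA and 8.31% fell there too. Of those with rising footprints, 81.8% were not called in mRNA and 17.0% rose there too. Across 10535 transcripts the 2 changes had a Pearson's r of 0.42, given as a description.

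**Figure D4:**
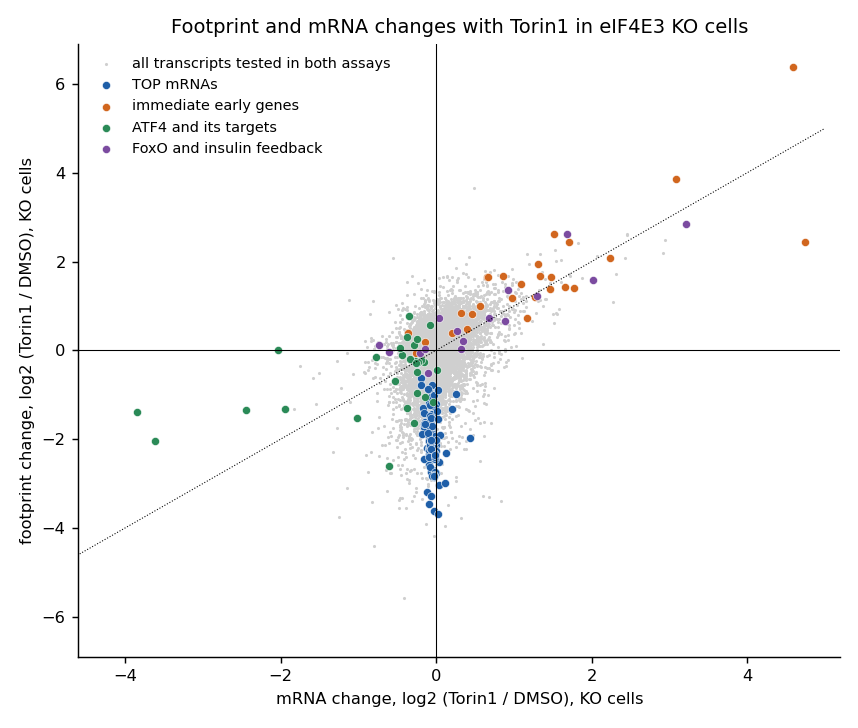
Footprint change (y axis) against mRNA change (x axis), both log2 of Torin1 over DMSO in KO cells, each grey point a transcript tested in both assays; the dotted line marks equal change. TOP mRNAs (blue) lie near 0 in mRNA and reach -3.68 in footprints, immediate early genes (orange) rise in both, and some ATF4 targets (green) fall further in mRNA than in footprints.

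Translation efficiency (TE), the footprint change tested against the mRNA change in 1 edgeR model, fell for 1871 of 10535 transcripts (17.8%) and rose for 1119 (10.6%). Of the 104 TOP mRNAs 102 had a lower TE, by a median of 1.98 on the log2 scale, and their mRNA changes lay between -0.25 and 0.43 with 2 of them called. ATF4 targets had a higher TE in 11 of 29 cases and a lower one in 8. In the immediate early genes TE rose for 7 and fell for 1 of 27, Junb gaining 1.11 and Egr1 0.79. Without TMM scaling 2700 transcripts had a higher and 1192 a lower TE.

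Transcripts that lost and gained footprints differed in length. The 5′ TL (transcript leader, the part before the CDS) had a median of 125 nt (quartiles 71 and 215 nt) in those called lower, 173 nt in those not called and 246 nt (quartiles 146 and 388 nt) in those called higher. The TOP lists did not set this value, as the median was also 125 nt for transcripts called lower outside them. The CDS had medians of 1148, 1359 and 1806 nt in the same order, and the GC content of the TL was 68.1%, 64.7% and 62.0%. These are descriptions of GENCODE annotations, and they overlap widely.

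Ctrl cells also lost footprints on TOP mRNAs with Torin1. In all, 1062 of 10693 ctrl transcripts fell (9.93%) and 608 rose (5.69%), from 3 Torin1 and 2 DMSO libraries, 1 of which held only 669392 footprints. The counts were 558 and 167 without ctrl DMSO replicate 1, 649 and 222 without ctrl Torin1 replicate 2, and 626 and 219 without ctrl Torin1 replicate 3, and 955 rose without ctrl DMSO replicate 3. Fewer libraries entered this fit than that of KO cells, so the number of calls cannot be compared between the genotypes. Across 10555 transcripts the KO and ctrl changes, which share no library, had a Pearson's r of 0.791. The TOP small and large subunit lists had medians of -1.86 and -1.99 in ctrl cells, beside -1.95 and -2.07 in KO cells. In ctrl cells Eef2 changed by -3.59 ± 0.15, Egr1 by 3.23 ± 0.19, Atf4 by -1.79 ± 0.14 and Txnip by 2.04 ± 0.20, and in none of these did the test of the difference between genotypes pass. In simulated counts that test recovered 91 of 200 transcripts given a difference of 1 on the log2 scale, so many differences of this size could be missed. The simulated counts held no other Torin1 or genotype change, so the share missed in the real data may differ.

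The test of that difference, the interaction of genotype with Torin1, called 12 of 10662 transcripts (0.113%), all with a log2 change lower in KO than in ctrl cells. By edgeR none was called with a higher response (0.0%), where 237 had an unadjusted p under 0.05 in that direction and 494 in the other. DESeq2 called 34 lower and 5 higher, and the replicate block 32 and 3. The footprints of all 12 fell in KO cells, and further than in ctrl cells. The replicates of each genotype were passages, so loss of eIF4E3 cannot be told apart here from another difference between the KO and ctrl populations.

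Slc7a5 had 1460 and 1150 CPM with DMSO and 440, 451 and 509 CPM with Torin1 in ctrl cells, whereas the KO Torin1 libraries reached only 207 to 240 CPM (difference of the log2 changes -1.10 ± 0.18, edgeR adjusted p = 0.00567). Srebf2 had 284, 240 and 270 CPM with Torin1 in ctrl cells and 93.7, 96.9 and 122 CPM in KO cells (-1.08 ± 0.19). Fbln2, an extracellular matrix protein, and Nomo1 fell in both genotypes and more in KO cells (-1.23 ± 0.21 and -1.13 ± 0.20). Loxl2, a secreted collagen-modifying enzyme, was level in ctrl cells, with 82.6 and 81.5 CPM against 81.0, 80.2 and 87.6 CPM (0.01 ± 0.16), and fell in KO cells from 115, 111 and 122 CPM to 41.4, 54.1 and 49.1 CPM (-1.27 ± 0.14). Tapbp, Ganab and Emc1, named after their values were seen, and Hyou1 encode ER proteins that load, trim, insert or fold other proteins, and differed by -1.35, -0.97, -1.22 and -0.93. Ybx1 differed by -0.89 ± 0.19. Gdpd1 and H2-D1, an MHC class I chain with close paralogs, also named after their values were seen, differed by -1.25 and -0.88, H2-D1 not past the threshold without TMM scaling (edgeR adjusted p = 0.0564). Without KO Torin1 replicate 1 no transcript was called, although all 12 kept their sign, and without ctrl Torin1 replicate 3 and KO Torin1 replicate 2 there were 6 and 7 lower calls. Without ctrl DMSO replicate 1 there were 38 lower and 12 higher, and without ctrl DMSO replicate 3 20 lower and 1 higher.

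**Figure D5:**
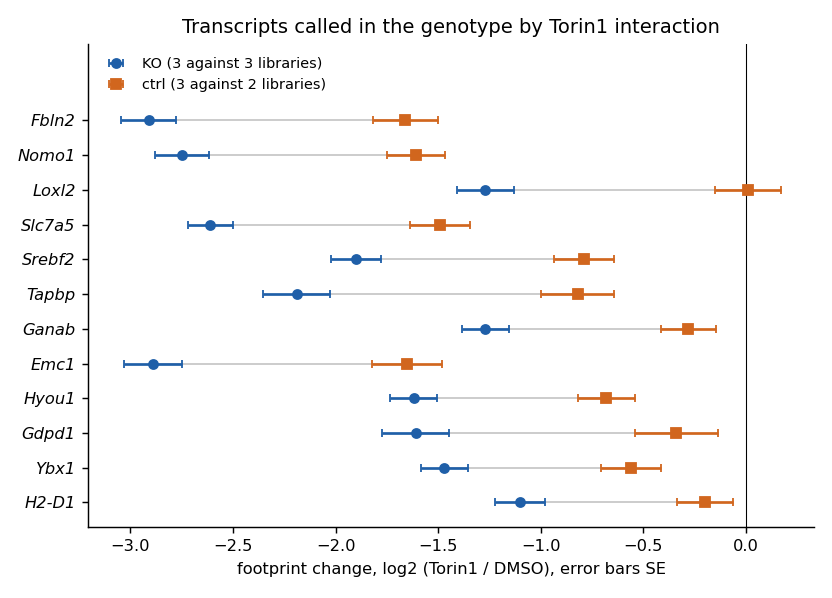
Footprint change with Torin1 (log2, x axis) of the 12 transcripts called in the genotype by Torin1 interaction, in KO (blue circles) and ctrl (orange squares), with SE as error bars. The KO value lies below the ctrl value for each, with differences of -0.88 to -1.35 on the log2 scale in the joint fit.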

How the data were processed

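Raw counts per CDS were used as deposited by the authors, in a table per pair of conditions. Per the study's methods and the submitters' processing notes, cutadapt trimmed the reads, HISAT2 mapped them (mm10), Bowtie2 placed footprints on the canonical transcripts of Ensembl, and riboWaltz assigned P-sites. The tables also hold the authors' edgeR fold changes and p-values, which were not used. Only transcripts past the authors' filter are listed, and 298 of 11120 in the KO footprint table did not meet it (CPM above 1 in every library of a condition) when recomputed, and were left out.

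Counts were tested with edgeR 4.0.16 (R 4.3.3; quasi-likelihood F-test, Benjamini-Hochberg adjustment, threshold 0.05). TE and the genotype difference were interaction terms. DESeq2 1.42.0, edgeR's exact test, other scalings, no filter, thinning, a replicate block and leaving out each library were the alternatives. The fits were checked on simulated counts in which 200 transcripts were changed by 1 on the log2 scale and no others were changed, unlike in the real data. Recovered were 156 of them in KO footprints, 197 in KO mRNA, 142 in TE, 116 in ctrl footprints and 91 in the interaction. Depth was 1615954 to 5288846 footprints in KO, 669392 to 4529186 in ctrl, and 17953074 to 28912958 reads in KO RNA-seq libraries. Each replicate is a different passage per the labels, so numbers pair libraries. The correlation of same-numbered deviations was -0.00648 to 0.0918 in KO footprints (other pairs -0.0958 to 0.0461) and 0.139 to 0.204 in KO mRNA. The block is not in the study's methods and was run as an alternative.

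Lengths came from GENCODE M21 on GRCm38 (12579 of 12624 transcripts matched by identifier), and start-site windows from RefSeq. Gene lists and members were chosen with earlier results of these data known. The genes named are a written set of cap-binding, TOP, stress and growth genes, the 8 largest rises and falls among calls with a mean of at least 10 counts and no overlap, for each list its 2 called members of lowest adjusted p, and up to 3 per direction in the interaction. A few genes under this rule are not reported here. Figures were drawn with matplotlib 3.10.9.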

Additional observations from a re-analysis of the deposited data

Results flagged for a closer look

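In 12 transcripts the Torin1 response of footprints differed between KO and ctrl cells in the test of the difference itself (edgeR interaction term, adjusted p under 0.05). No transcript was called without KO Torin1 replicate 1, and ctrl DMSO had 2 libraries, 1 of them with 669392 footprints. The replicates were passages, so loss of eIF4E3 cannot be told apart from another difference between the 2 cell populations. The difference of the log2 changes, KO minus ctrl, was -1.23 for Fbln2, -1.13 for Nomo1, -1.26 for Loxl2, -1.10 for Slc7a5, -1.08 for Srebf2 and -1.35 for Tapbp. It was -0.97 for Ganab, -1.22 for Emc1, -0.93 for Hyou1, -1.25 for Gdpd1, -0.89 for Ybx1 and -0.88 for H2-D1. The levels with DMSO were similar in both genotypes for some of them, such as Ganab (770 and 762 CPM in ctrl, 789, 790 and 894 CPM in KO), while Loxl2 was higher in KO (111 to 122 CPM) than in ctrl cells (81.5 and 82.6 CPM). Groups of 3 samples were not tested for single outlying libraries.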

How the results depend on the processing

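Of the 4390 transcripts called in KO footprints, 3437 to 4365 were called with the same sign under each alternative, and none with the opposite sign. Without TMM scaling the higher and lower calls were 3766 and 1532 in KO footprints, 2700 and 1192 in TE and 1691 and 684 in ctrl footprints. With the replicate block they were 1080 and 717 in KO mRNA and 3 and 32 in the interaction, and with DESeq2 5 and 34 in the interaction; the block moved no other count by over 1.5 times. Leaving out 1 library gave 1526 to 1859 higher and 2001 to 2327 lower in KO footprints, 302 to 857 and 136 to 608 in KO mRNA, 804 to 1445 and 1642 to 2070 in TE, 167 to 955 and 558 to 1336 in ctrl footprints, and 0 to 12 and 0 to 38 in the interaction. The cause of these shifts was not tested. Where the fit was left with 1 ctrl DMSO library, that library was assumed to vary like the others.

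None of the genes whose change reversed had passed the threshold. The medians of 4 lists turned positive without TMM scaling (eIF4F and cap binding 0.21, LARP and poly(A) binding 0.23, other initiation factors 0.15, lysosome and autophagy 0.16), and those of the first 2 ranged from -0.13 to 0.13 and from -0.15 to 0.08 when 1 library was left out. Without KO Torin1 replicate 1, Eif4e, Eif4e2 and Eif4e3 turned negative, in ranges of -0.02 to 0.20, -0.02 to 0.15 and -0.18 to 0.63 over the libraries left out. Th turned negative with the block (-0.02), DESeq2 (-0.01), thinning (-0.52) and without KO DMSO replicate 2 or KO Torin1 replicate 1 (range -0.27 to 0.29). Eif4g1 and Eif4a1 changed their call without 3 and 4 single libraries, and Asns in 11 of 13 alternatives. At 15 footprints or fewer per Torin1 library, as for Eif4e3 and Th, depth limits what could be seen.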
